A study of Mus musculus with 22 samples.

Results

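The first synapse of vision joins photoreceptor terminals to the dendrites of ON bipolar cells, and 10 of its genes are described here in mice that lack AdipoR1. They were listed by name for their place at the synapse, 6 on the presynaptic side (Bsn, Pclo, Rims2, Cacna1f, Cacna2d4 and Cabp4) and 4 on the postsynaptic side (Grm6, Trpm1, Nyx and Gpr179). The list was made with earlier results of these data known. All 10 were found among the 53801 genes of the bulk retina count table and among the 19324 genes of the single-cell matrix. The study asked how loss of AdipoR1 changes the retina and the retinal pigment epithelium (RPE). Bulk RNA-Seq was done at P30 on 4 WT and 4 AdipoR1–/– (KO) retina samples and on as many RPE samples. Single-cell RNA-Seq followed the retina over 3 ages (P19, P25, P30), and each age had a single WT and a single KO library. WT and KO mice were C57BL/6J, the KO mice were homozygous for the Adipor1 tm1Dgen allele, and the study used both sexes. Each bulk retina sample came from both eyes, and each single-cell library pooled 4 retinae, so that single-cell values cannot be assigned to a mouse. The P30 single-cell libraries of both genotypes were sequenced as a batch of their own, on another instrument than P19 and P25, and batch and age cannot be told apart for a level, whereas the KO to WT comparison at an age lies within a batch.

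Rods and cones release glutamate continuously in the dark from a ribbon, a plate that tethers vesicles above a row of calcium channels. The channel's pore (Cacna1f), its auxiliary subunit (Cacna2d4) and a calcium sensor bound to it (Cabp4) set how much calcium enters, while Bassoon and Piccolo (Bsn and Pclo) and RIM2 (Rims2) hold the release site together. Across the cleft, the glutamate receptor mGluR6 (Grm6) of ON bipolar cells keeps the cation channel TRPM1 closed in the dark, with nyctalopin (Nyx) and GPR179 holding the receptor, the channel and their G-protein regulators in place, and loss of either side is known for night blindness.

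Adipor1 itself, the targeted gene, was read first as a check of the labels. In CPM (counts scaled to a common library size, with TMM factors), it was at 605, 601, 589 and 607 in the WT retina libraries and at 142, 138, 136 and 138 in the KO libraries. In rod-like single cells, where levels are CPM of unique molecular identifiers (UMIs), it was at 548 (P19), 502 (P25) and 724 (P30) in WT and at 81.0, 118 and 114 in KO. Every KO library was below every WT library in both assays, and part of the transcript was still counted in KO. The retina libraries held between 27443445 and 30443894 counts in WT and between 22734843 and 35118164 in KO.

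In the bulk retina, the presynaptic genes that were called were lower in KO and the postsynaptic genes that were called were higher. Genotypes were compared over all 19381 genes that passed a filter on low counts, by the quasi-likelihood test of edgeR with p adjusted after Benjamini and Hochberg, and a gene was called at an adjusted p below 0.05. Of the 10 genes, all of which passed the filter, 7 were called, where 30.9% of all genes tested were. Among these, 4 presynaptic genes fell (14.7% of all genes tested fell) and 3 postsynaptic genes rose (16.2% of all genes tested rose), while Bsn, Pclo and Nyx did not pass. With a fold change of at least 1.5 required as well, only Cabp4 was called, against 10.0% of all genes tested. Libraries of the 2 genotypes did not overlap for 8 of the 10 genes, as for 31.4% of all genes tested. The 10 genes and the lists below were chosen with earlier results of these data known. A count beside the share of all genes is therefore a description and no test of the set. In these bulk samples, fewer cells of a type and less RNA per cell cannot be told apart.

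Cabp4, the calcium sensor that shifts the opening of the channel to lower voltages, moved the most. Its 4 WT libraries were at 233, 240, 229 and 215 CPM, and its 4 KO libraries were at 118, 123, 132 and 132 CPM. All KO libraries were thus well below all WT libraries, and the spread within a genotype was small beside the gap. The level fell from 229 ± 10.4 to 126 ± 7.27 CPM (mean ± SD, n = 4), a log2 fold change of -0.86 ± 0.05 (SE), lower in 4 of 4 KO libraries with an edgeR adjusted p of 1.87e-08. Cabp4 (ENSMUSG00000024842) lies on the minus strand of chromosome 19 from 4135423 to 4144033, and 131 of its exon bases overlap Gpr152 on the other strand.

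Rims2, the scaffold that links vesicles to the calcium channels, came next. WT libraries were at 287, 296, 302 and 301 CPM and KO libraries at 207, 199.99, 201 and 195 CPM. The genotypes were separated by a wide gap, and the libraries of each genotype lay close together. The mean fell from 296 ± 6.81 to 201 ± 5.17 CPM, a log2 fold change of -0.56 ± 0.04, lower in 4 of 4 KO libraries with an edgeR adjusted p of 1.08e-07. Rims2 (ENSMUSG00000037386) spans chromosome 15 from 39198261 to 39684372 on the plus strand.

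Cacna1f encodes the pore of the Cav1.4 channel through which photoreceptor terminals take up calcium. It was at 586, 535, 598 and 566 CPM in WT and at 432, 426, 379 and 423 CPM in KO, where replicate 3 was the lowest library. No KO library reached the lowest WT library. Its log2 fold change was -0.46 ± 0.05, with an edgeR adjusted p of 2.49e-05 and 4 of 4 KO libraries lower. Its partner Cacna2d4, the subunit that brings the channel to the membrane, was at 717, 693, 723 and 669 CPM in WT and at 613, 593, 594 and 590.5 CPM in KO. The groups again did not overlap, but the step was smaller, with a log2 fold change of -0.23 ± 0.05, an edgeR adjusted p of 0.00208 and 4 of 4 KO libraries lower.

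The large cytomatrix proteins of the release site differed less. Bsn, which anchors the ribbon to the membrane, was at 186, 178, 206 and 199 CPM in WT and at 177, 169, 176 and 192 CPM in KO. Its groups overlapped through KO replicate 4, and its log2 fold change of -0.11 ± 0.05 gave an edgeR adjusted p of 0.137. Without WT replicate 2, the lowest WT library, the edgeR adjusted p was 0.0431, and over its 16 alternatives it was between 0.0431 and 0.983. Pclo, the related scaffold of vesicle clusters, was at 257, 264, 316 and 277 CPM in WT and at 257, 245, 260 and 244 CPM in KO, again with overlapping groups. Its log2 fold change was -0.15 ± 0.06 with an edgeR adjusted p of 0.0747, and without WT replicate 1 the edgeR adjusted p was 0.039. DESeq2 gave Pclo an adjusted p of 0.0466, in a range of 0.039 to 0.925 over its alternatives. A miRNA gene overlaps 57 exon bases of Bsn, and 2 antisense genes overlap 429 and 496 exon bases of Pclo.

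On the postsynaptic side, Trpm1, the cation channel of ON bipolar dendrites, was at 372, 375, 392 and 383 CPM in WT and at 467, 473, 451 and 465 CPM in KO. The KO libraries lay above the WT libraries with no overlap. The mean rose from 381 ± 8.90 to 464 ± 9.56 CPM, a log2 fold change of 0.29 ± 0.04, higher in 4 of 4 KO libraries with an edgeR adjusted p of 1.23e-04. Trpm1 (ENSMUSG00000030523) spans chromosome 7 from 64153835 to 64269775 on the plus strand.

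Grm6, the receptor that senses photoreceptor glutamate, was at 185, 180.0, 203 and 203 CPM in WT and at 228, 225, 231 and 244 CPM in KO, so that every KO library was higher than every WT library. The log2 fold change was 0.27 ± 0.05, with an edgeR adjusted p of 7.20e-04 and 4 of 4 KO libraries higher. Grm6 (ENSMUSG00000000617) lies on chromosome 11 from 50850685 to 50866208, and an antisense gene overlaps 599 of its exon bases.

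Gpr179, an orphan receptor that holds the regulators of G-protein signalling at the dendrite tips, was at 164, 184, 189 and 185 CPM in WT and at 208, 200.1, 191 and 240.0 CPM in KO. The lowest KO library was only just above the highest WT library, and the KO libraries spread more widely than the WT libraries. The log2 fold change was 0.21 ± 0.07, with an edgeR adjusted p of 0.0251 and 4 of 4 KO libraries higher. This call rested on WT replicate 1, the lowest WT library: without it the log2 fold change was 0.17 and the edgeR adjusted p was 0.0868. Over the 16 alternatives the adjusted p of Gpr179 was between 0.00205 and 0.885, and below the threshold in 14.

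Nyx, the leucine-rich repeat protein that places TRPM1 at the dendrite tips, had the lowest counts of the 10 genes. It was at 26.8, 23.1, 28.7 and 28.2 CPM in WT and at 29.1, 29.3, 33.1 and 31.1 CPM in KO, with KO libraries above WT libraries by a narrow margin. The log2 fold change of 0.20 ± 0.07 had an edgeR adjusted p of 0.0575. With the replicate number as a block, the edgeR adjusted p of Nyx was 0.0232, without WT replicate 3 it was 0.0485, with DESeq2 it was 0.0454, and under a filter of 10 counts per library it was 0.0419, each below the threshold. Over all 16 alternatives the adjusted p of Nyx was between 0.00552 and 0.742.

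**Figure D1:**
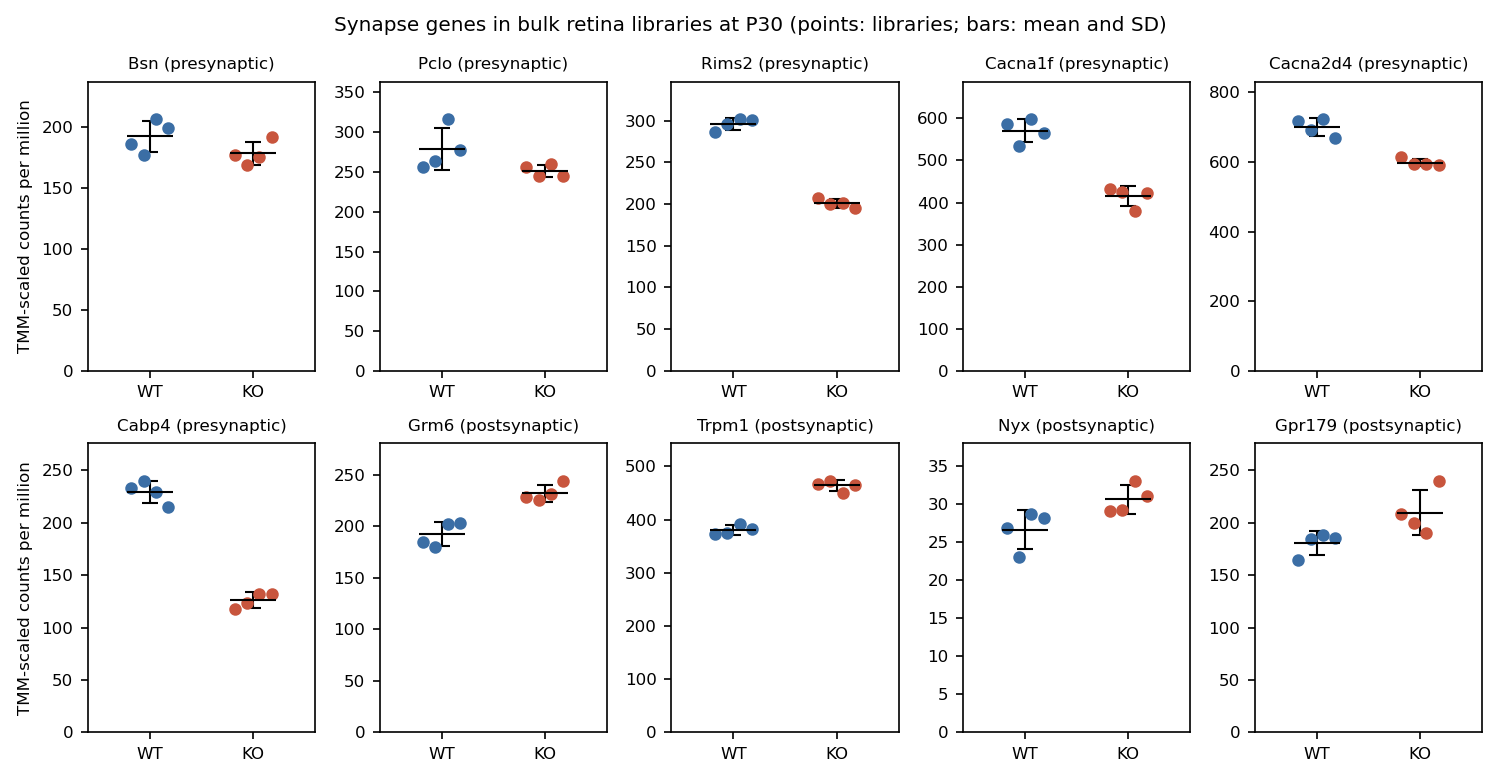
TMM-scaled CPM (y axis, from 0) of the 10 synapse genes in each bulk retina library of WT and KO mice at P30, with the mean and SD of 4 libraries per genotype. KO points lie below the WT points for Rims2, Cacna1f, Cacna2d4 and Cabp4 and above them for Grm6, Trpm1, Nyx and Gpr179, while they overlap for Bsn and Pclo.

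Divided by exon length, to compare genes, Cacna2d4 (73.9 ± 2.62 CPM per kilobase, mean ± SD of WT libraries), Cabp4 (65.2 ± 2.95) and Cacna1f (62.8 ± 3.04) had the highest levels. Cabp4 and Cacna1f did not differ beyond their spread. Grm6 (35.5 ± 2.20), Rims2 (28.5 ± 0.656), Trpm1 (25.8 ± 0.603) and Gpr179 (18.9 ± 1.17) followed, and each of these differed from its neighbors by more than an SD. Pclo (12.4 ± 1.18) and Bsn (12.1 ± 0.814) could not be ordered, and Nyx (5.15 ± 0.486) was the lowest. In KO libraries the length-scaled level of Cabp4 (35.9 ± 2.07) was below that of Grm6 (42.9 ± 1.55).

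The scale and the spread bear on these calls. Without TMM the median log2 fold change of all genes was 0.114, against 0.0036 with it, and 79.8% of called genes were higher in KO, against 52.5%. On that scale Bsn changed sign, to a log2 fold change of 0.0019, Cacna2d4 lost its call (edgeR adjusted p = 0.0593) and Nyx gained one (edgeR adjusted p = 0.00552), while the other directions held. When retina and RPE libraries shared a single fit and its estimate of spread, none of the 10 genes was called by edgeR. Their adjusted p was then between 0.547 and 0.963, and 0 had an unadjusted p below 0.05.

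Other genes of the same synapse went in both directions on each side. Of 24 further presynaptic ribbon and release genes, 5 rose and 9 fell, where 16.2% of all genes tested rose and 14.7% fell. The median log2 fold change of these 24 genes was -0.04, where the median of all genes tested was 0.0036. The 5 with the smallest p fell: Cacnb2, the channel's beta subunit (-0.49), Unc119, a carrier of lipid-modified proteins found at the ribbon (-0.56), the membrane fusion protein Stx3 (-0.47), the vesicle priming factor Unc13b (-0.47) and the vesicular glutamate transporter Slc17a7 (-0.33), with edgeR adjusted p between 3.07e-06 and 3.87e-04 and 4 of 4 KO libraries lower for each.

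Of 14 genes for adhesion and matrix across the cleft, 3 rose and 6 fell (16.2% and 14.7% of all genes tested), with a median of -0.08. Lrit2 (-0.51), Lrit1 (-0.26) and Elfn1 (-0.33), membrane proteins of photoreceptor terminals, fell. Dystroglycan (Dag1), which binds the matrix protein pikachurin, rose by 0.31, and edgeR adjusted p ranged from 5.25e-06 to 0.0011 over these 4 genes, each in 4 of 4 KO libraries.

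Of 14 genes of the ON bipolar signalling cascade, 3 rose and 3 fell (16.2% and 14.7% of all genes tested), with a median of -0.03. These counts are near the shares of all genes. The G-protein subunit Gnb3, which cones and ON bipolar cells share, was at 348 ± 26.0 CPM in WT and at 1441 ± 68.1 CPM in KO (log2 fold change 2.05), and the regulator anchor Rgs9bp, which rods also use, was at 1177 ± 50.8 and 539 ± 13.6 CPM (-1.13). Gnb5, the partner of RGS proteins, fell (-0.50), whereas Plcb4, a phospholipase of rod bipolar cells (0.35), and Rgs11, which ends mGluR6 signalling (0.37), rose. For these 5 genes, edgeR adjusted p ranged from 7.96e-11 to 1.41e-04, each with 4 of 4 KO libraries on one side of WT.

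Markers of the cells on both sides were read in the same libraries, where 16.2% of all genes tested rose and 14.7% fell. Of 16 rod markers, 0 rose and 15 fell, and their summed level was 83423, 83300, 77046 and 76756 CPM in WT and 45487, 43587, 43951 and 40281 CPM in KO. Among them were Nrl, with a log2 fold change of -1.08, Pde6b (-0.94) and Pde6g (-0.93). The ratio of summed rod markers, KO to WT, was 0.541, and the fitted ratio of Cabp4 was 0.55, that of Rims2 0.678, that of Cacna1f 0.727 and that of Cacna2d4 0.853. Of 10 cone markers, 1 rose and 3 fell, led by Guca1a (-0.66), Arr3 (-0.32) and Opn1sw (-0.28). The cone sum was 2354, 2230.3, 2281 and 2221 CPM in WT and 1849.9, 1938, 1843 and 1846 CPM in KO.

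The sums of bipolar cell markers differed less between genotypes than those of rods (ratio 0.541, KO to WT) and cones (0.823). Single bipolar markers were called in both directions, and the difference between lists was not tested. Of all genes tested, 16.2% rose and 14.7% fell. Of 7 rod bipolar markers 3 rose and 1 fell, with Adamts5 at a log2 fold change of 0.48, Car8 at 0.20, Sebox at -0.28 and the most abundant, Prkca, at -0.12 (not called). Their sum was between 569 and 595 CPM in WT and between 564 and 579 CPM in KO. Of 8 ON cone bipolar markers, 1 rose (Sox6, 0.35) and 2 fell (Serpini1, -0.23, and Igfn1, -0.37), with Isl1 the most abundant (0.09, not called), and their sum was between 297 and 309 CPM in WT and between 292 and 296 CPM in KO. Of 9 OFF cone bipolar markers 2 rose (Grik1, the most abundant, 0.15, and Zfhx4, 0.18) and 0 fell, and Lhx3 (0.14) was not called. Their sum was between 312 and 327 CPM in WT and between 338 and 351 CPM in KO. Of 10 markers of all bipolar cells, 2 rose (among them Trnp1, 0.19) and 0 fell, while Vsx1 (-0.18) and the most abundant, Otx2 (-0.02), were not called, and their sum was between 1123 and 1219 CPM in WT and between 1217 and 1244 CPM in KO. No marker of these 6 lists was at 0 in a retina library. The sums of the rod bipolar markers and of the markers of all bipolar cells overlapped between genotypes, the sum of the ON cone bipolar markers was lower in every KO library than in every WT library, and that of the OFF cone bipolar markers was higher. The ratio of summed markers, KO to WT, was 0.979 for rod bipolar cells, 0.978 for ON cone bipolar cells, 1.08 for OFF cone bipolar cells and 1.05 for all bipolar cells. The part of the cell types in the changes of the 10 genes was not tested.

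Single cells showed where each gene was used. Of the 26764 cells, 1429 stayed unnamed and the others fell into 14 named classes, called rod-like and so on after fixed marker genes, from clusters made without the 10 genes and the synapse lists, while marker genes were not left out. Levels below are CPM in the summed cells of a class, as the mean ± SD over the 6 libraries. Most genes were lower at P30 than at P19 and P25 in both genotypes, so that these SDs hold the step between batches. The classes share the 6 libraries, and this spread does not compare classes within a library.

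Cabp4 was at 453 ± 67.5 in rod-like and at 426 ± 38.4 in cone-like cells, which did not differ beyond their spread, and at most at 56.7 in the other classes. Cacna1f was at 87.8 ± 38.8 in rod-like cells, followed by ON cone bipolar-like (70.4 ± 21.96), cone-like (68.0 ± 17.6), OFF cone bipolar-like (64.3 ± 20.8) and rod bipolar-like cells (53.1 ± 12.8), neighbors that overlapped, and no other class exceeded 13.35. Cacna2d4 did not differ beyond its spread between rod bipolar-like (214 ± 82.7), ON cone bipolar-like (210.0 ± 68.1), OFF cone bipolar-like (161 ± 52.6) and rod-like cells (149 ± 60.5), and cone-like cells were lower (87.4 ± 41.5). Within each library, however, rod bipolar-like and ON cone bipolar-like cells were both above rod-like cells for Cacna2d4, which was not tested. The channel genes were thus shared by photoreceptors and bipolar cells, which also have ribbons, whereas Cabp4 was between 14.6 and 23.2 in the bipolar classes.

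The scaffolds were spread more widely. Rims2 was highest in rod-like cells (508 ± 230), then in ON cone bipolar-like (307 ± 34.6), cone-like (288 ± 83.1) and OFF cone bipolar-like cells (258 ± 49.96), none beyond its spread from the next. Within each library Rims2 was higher in rod-like than in cone-like cells, which was not tested. Pclo was highest in amacrine-like cells (280 ± 143) and OFF cone bipolar-like cells (255 ± 134), at 115 ± 71.0 in rod-like and at 83.2 ± 42.2 in cone-like cells. Bsn was highest in amacrine-like cells (69.6 ± 19.1) and differed there from the next class, retinal ganglion-like cells (42.7 ± 11.8), while rod-like (16.4 ± 9.88) and cone-like cells (8.37 ± 3.13) were low. Amacrine cells make conventional synapses, which use both scaffolds.

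The postsynaptic genes had their highest mean levels in ON bipolar classes, though not in these alone. Trpm1 was at 3217 ± 1058 in rod bipolar-like cells, beyond the spread of the next classes, RPE-like (912 ± 811) and ON cone bipolar-like cells (895 ± 306), and at 294 ± 71.8 in OFF cone bipolar-like cells. Grm6 was at 842 ± 323 in rod bipolar-like and 776 ± 210 in ON cone bipolar-like cells, with no difference beyond the spread, and at 81.7 ± 53.2 in OFF cone bipolar-like cells. Gpr179 was at 462 ± 194 and 277 ± 114 in the same ON classes and at 69.0 ± 24.2 in OFF cone bipolar-like cells. Nyx was at 54.7 ± 28.3 in ON cone bipolar-like, 30.4 ± 17.5 in rod bipolar-like and 21.3 ± 7.22 in OFF cone bipolar-like cells, and near 1 or below elsewhere. Rod-like cells held little of Grm6 (9.36 ± 5.43), Trpm1 (12.3 ± 7.87) and Gpr179 (3.74 ± 2.91).

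**Figure D2:**
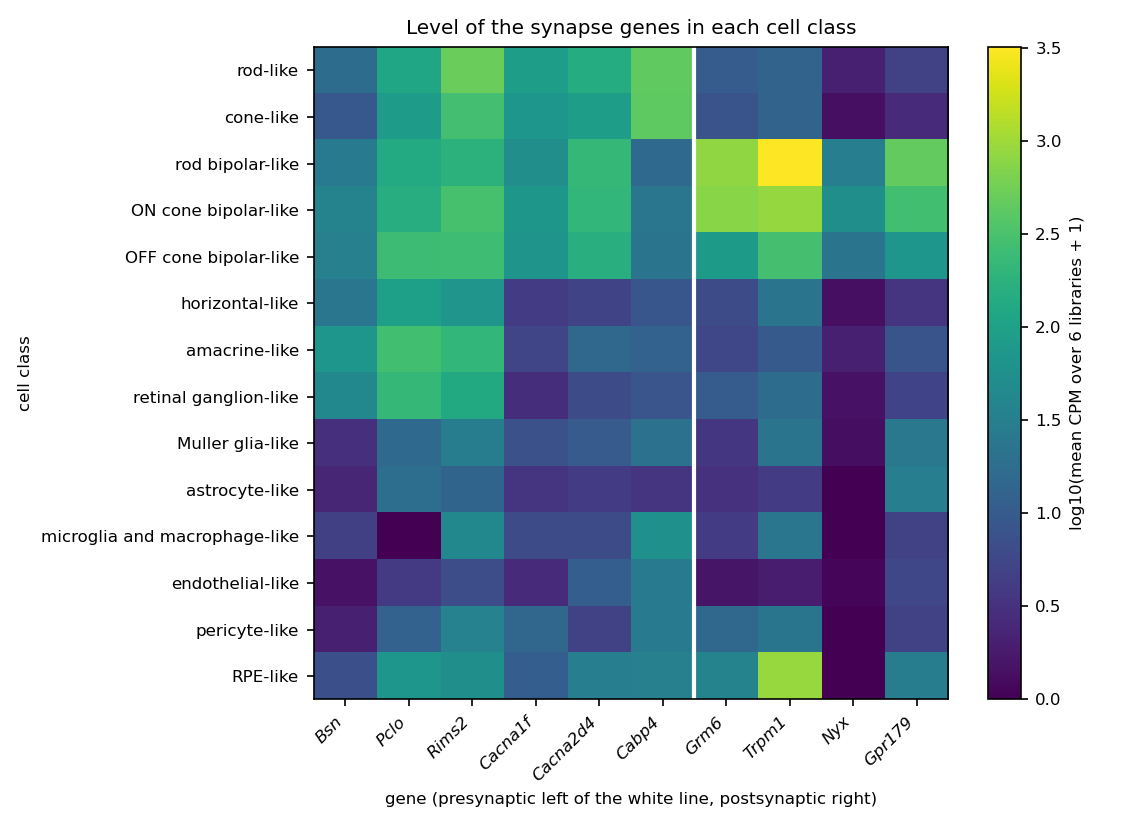
Level of each synapse gene (x axis) in each of the 14 named cell classes (y axis), as log10 of the mean CPM over 6 single-cell libraries plus 1, with presynaptic genes left of the white line and postsynaptic genes right of it. Cabp4 stands out in rod-like and cone-like cells, Trpm1 in rod bipolar-like cells at 3217 CPM, and Pclo, Rims2 and Bsn reach classes that do not contact the photoreceptor.

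In rod-like cells the scaffold Rims2 and the channel pore Cacna1f were lower in KO at every age. The cells compared came largely from different clusters, cluster 1 in WT and cluster 0 in KO at P19 and P25, cluster 4 in WT and cluster 2 in KO at P30, so that these values compare largely different clusters. Rims2 was at 793 (WT P19), 753 (WT P25) and 296 (WT P30) CPM and at 487 (KO P19), 489.5 (KO P25) and 231 (KO P30). KO was below WT at each age, and both P30 libraries were below all the earlier ones. The log2 ratio of KO to WT was -0.70 at P19 (95% exact interval -0.84 to -0.56), -0.62 at P25 (-0.75 to -0.49) and -0.36 at P30 (-0.53 to -0.18). These intervals cover counting error only, and a single age has 1 library per genotype and no test. At P19 Rims2 was also lower in KO in ON cone bipolar-like (-0.23), OFF cone bipolar-like (-0.35) and amacrine-like cells (-0.30), with intervals below 0. At P25 it was higher in amacrine-like cells (0.16), and the intervals of both cone bipolar classes included 0. At P30 the intervals of these classes included 0. Whether a difference was shared across the classes of a library was not tested.

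Cacna1f in rod-like cells was at 128, 137 and 52.7 CPM in WT and at 90.1, 78.0 and 41.1 CPM in KO at P19, P25 and P30. KO was again lower at each age. The log2 ratios were -0.50 (-0.85 to -0.16), -0.81 (-1.12 to -0.49) and -0.36 (-0.78 to 0.07), so that the difference at P30 was within counting error.

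Over the ages, limma-trend on the summed UMIs, with age in the model and 2 residual degrees of freedom, called both of these genes in rod-like cells out of the 9 tested, where 6.43% of the 11675 genes were called and 2.18% were called as lower. Rims2 had a log2 ratio of -0.56 ± 0.13 (limma adjusted p = 0.0178) and Cacna1f one of -0.55 ± 0.14 (limma adjusted p = 0.0364), each lower at 3 of 3 ages. By unadjusted p the same 2 passed, as did 20.1% of all genes. Both calls were lost without P19 and without P25, and both were kept without P30, each a fit with 1 residual degree of freedom. Over all genes, 751 calls became 530 without P19, 417 without P25 and 1626 without P30. Without P19 the log2 ratio of Rims2 was -0.49 (limma adjusted p = 0.16) and that of Cacna1f -0.58 (limma adjusted p = 0.113). Without P25 they were -0.53 (limma adjusted p = 0.206) and -0.42 (limma adjusted p = 0.418), and without P30 -0.66 (limma adjusted p = 3.49e-07) and -0.65 (limma adjusted p = 0.00065). At the finer clustering resolution Cacna1f had a limma adjusted p of 0.0814. Over 11 alternatives the adjusted p ranged from 3.49e-07 to 0.206 for Rims2 and from 0.00065 to 0.418 for Cacna1f. Nyx had under 20 UMIs in rods and was not tested.

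Cabp4, which moved the most in the bulk retina, differed little in rod-like cells. It was at 478, 537 and 404 CPM in WT and at 476, 478 and 346 CPM in KO at P19, P25 and P30. The values were nearly equal at P19, and KO was lower at the later ages, with log2 ratios of -0.01 (-0.16 to 0.15), -0.17 (-0.31 to -0.02) and -0.22 (-0.37 to -0.08). Over the ages the log2 ratio was -0.13 ± 0.13 (limma adjusted p = 0.618). Cacna2d4 had log2 ratios of -0.32, -0.30 and -0.05 and over the ages -0.22 ± 0.13 (limma adjusted p = 0.372).

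Pclo went both ways in rod-like cells, with 195, 151 and 26.0 CPM in WT and 115, 168 and 32.6 CPM in KO. KO was lower at P19 (log2 ratio -0.76, -1.05 to -0.47) and higher at P25 (0.16, -0.11 to 0.43) and P30 (0.33, -0.22 to 0.89). Bsn had between 8 and 78 UMIs per library in rods, and its intervals included 0 at each age. Over the ages, limma adjusted p was 0.832 for Pclo and 0.911 for Bsn.

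No test over the ages was planned or made in cone-like cells. Cabp4 was at 470.0, 435 and 432 CPM in WT and at 407, 454 and 361 CPM in KO at P19, P25 and P30. It was lower in KO at P19 (log2 ratio -0.21, -0.38 to -0.04) and within counting error at P25 and P30. Rims2 was lower in KO at 3 of 3 ages, with log2 ratios of -0.05, -0.21 and -0.42, of which that at P25 lay outside counting error (-0.41 to -0.02). Intervals for Cacna1f, Cacna2d4, Pclo and Bsn in cones included 0 at each age. Most cone-like cells were in cluster 6 at P19 and P25 and in cluster 26 at P30.

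Rod bipolar-like cells, which hold the most Trpm1, gave different directions by gene and age. Trpm1 was at 4006, 3985 and 2169 CPM in WT and at 3453, 4060 and 1628 CPM in KO at P19, P25 and P30. KO was lower at P19 (log2 ratio -0.21, -0.27 to -0.16) and P30 (-0.41, -0.64 to -0.19) and close to WT at P25 (0.03, -0.03 to 0.08). Grm6 was at 1063, 925 and 522 CPM in WT and at 1313, 759 and 473 CPM in KO, higher in KO at P19 (0.30, 0.20 to 0.41), lower at P25 (-0.29, -0.41 to -0.16) and within counting error at P30 (-0.14, -0.59 to 0.30). Gpr179 was lower in KO at 3 of 3 ages, with 640, 604 and 252 CPM in WT and 562, 529.5 and 184 CPM in KO. Its log2 ratios were -0.19 (-0.33 to -0.04), -0.19 (-0.34 to -0.04) and -0.45 (-1.15 to 0.23), where the log2 fold change of Gpr179 in the bulk retina was 0.21. Nyx had at most 59 UMIs per library, and its intervals included 0. Nearly all rod bipolar-like cells were in cluster 5 at P19 and P25 and in cluster 31 at P30.

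Over the ages, 0 of the 10 genes passed limma's adjusted p of 0.05 in rod bipolar-like cells, where 1 of 10411 genes did (0.00961%). By unadjusted p, 1 of them passed, Gpr179 with a log2 ratio of -0.28 ± 0.10, against 4.17% of all genes, and edgeR on the UMI counts called 0 of the 10 while it called 135 genes. Log2 ratios were -0.20 ± 0.10 for Trpm1, -0.04 ± 0.13 for Grm6 and -0.34 ± 0.34 for Nyx. A cluster with both rod and rod bipolar markers, which was kept out of both classes, held 33 cells (1.29%) in WT P30 and 95 cells (2.74%) in KO P30. With it counted as rod bipolar-like, an alternative chosen after seeing the data, 0 of the 10 genes passed by limma's adjusted p and 2 by unadjusted p, where 7 and 631 of 10525 genes did.

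ON cone bipolar-like cells gave another order. Grm6 was higher in KO at 3 of 3 ages, with 869, 844 and 494 CPM in WT and 1024, 883 and 544 CPM in KO and log2 ratios of 0.24 (0.15 to 0.33), 0.06 (-0.04 to 0.17) and 0.14 (-0.17 to 0.45). Trpm1 was at 1002, 1096 and 534 CPM in WT and at 836, 1321 and 578 CPM in KO, lower at P19 (-0.26) and higher at P25 (0.27). In OFF cone bipolar-like and amacrine-like cells Trpm1 was also lower in KO at P19 (-0.26 and -0.62) and higher at P25 (0.37 and 0.65). Nyx was lower in KO at P19, where 200 UMIs in WT and 74 in KO gave a log2 ratio of -0.88 (-1.28 to -0.49), and close to WT at P25 (0.02). Gpr179 was lower in KO at 3 of 3 ages (-0.15, -0.04 and -0.51), each within counting error. Over the ages, 0 of the 10 genes passed by limma's adjusted or unadjusted p, where 0 (0%) and 380 (3.22%) of 11815 genes did, and edgeR called 0 of the 10 among 46 genes. Whether the bulk retina and the bipolar classes differed in these genes was not tested.

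**Figure D3:**
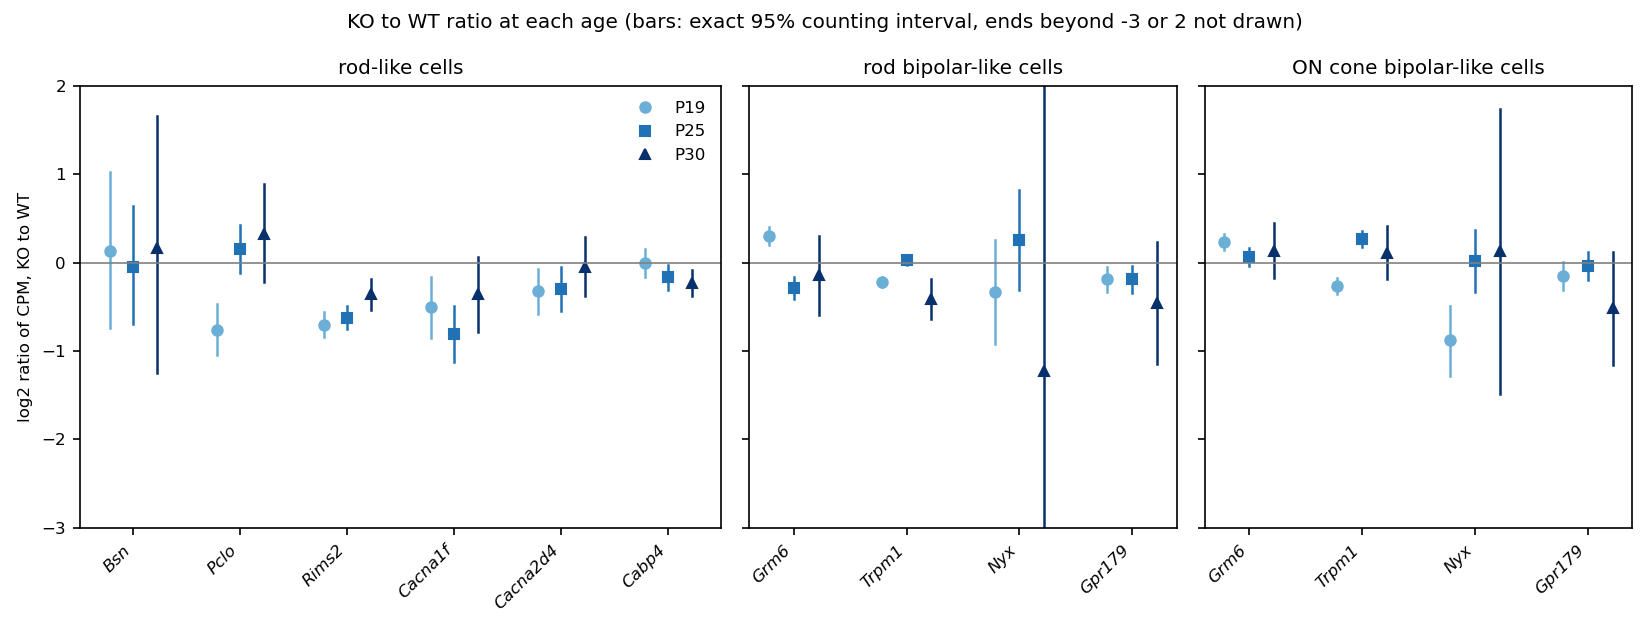
Log2 ratio of CPM, KO to WT (y axis), of the presynaptic genes in rod-like cells and of the postsynaptic genes in rod bipolar-like and ON cone bipolar-like cells at P19, P25 and P30, with exact 95% intervals for counting error and 1 library per genotype and age. Rims2 and Cacna1f are below 0 at each age in rod-like cells, whereas Grm6 and Trpm1 lie on both sides of 0 in rod bipolar-like cells.

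OFF cone bipolar-like cells, which are not thought to use mGluR6, held low levels of Grm6 that were higher in KO at P19 (64.4 against 27.3 CPM) and P25 (72.5 against 32.9 CPM) and equal at P30 (147 and 146 CPM). In rod-like cells Grm6 was at 9.83, 8.06 and 10.2 CPM in WT and at 19.0, 6.08 and 2.97 CPM in KO at P19, P25 and P30. Its intervals there included 0 at P19 (13 UMIs in WT and 27 in KO) and P25 (8 and 18). At P30 the rod-like KO cells were lower, on 18 UMIs in WT and 7 in KO. In cone-like cells Grm6 was at 6.10, 0.702 and 8.30 CPM in WT and at 6.03, 13.4 and 7.79 CPM in KO. It was higher in KO at P25 on 1 UMI in WT and 15 in KO, and within counting error at P19 and P30. The part of RNA from other cells in these low levels was not tested.

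Across the 14 classes, the genes with the pattern most like each synapse gene were ranked by Pearson's r of mean log2 CPM among 13856 genes, as a description over classes that share libraries. Cabp4 was closest to Fabp12 (0.993), Rtbdn (0.983) and Llgl2 (0.977), and Cacna1f to Slc17a7 (0.977), Lrit2 (0.969) and Gm49932 (0.962). Rims2 was closest to Cstf3 (0.979), Zkscan2 (0.976) and Dmxl2 (0.974), Cacna2d4 to Klc3 (0.962), Plk5 (0.962) and Gm49932 (0.958), Pclo to Vamp2 (0.968), Cxxc4 (0.964) and Zfp428 (0.960), and Bsn to Soga3 (0.970), Ccdc92b (0.965) and Unc13a (0.964).

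Grm6 was closest to 5033426E14Rik (0.979), the bipolar transcription factor Bhlhe23 (0.969) and Gm9195 (0.966), and Gpr179 to Gm30893 (0.921), Gm30382 (0.920) and 5033426E14Rik (0.918). Trpm1 was closest to 4933429O19Rik (0.976), Rsph10b (0.918) and Gm30893 (0.899), and Nyx to Gm16346 (0.988), Cdc25c (0.984) and Gm3550 (0.982).

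In the bulk RPE libraries, Cabp4 and Grm6 were high in the libraries where rod markers were high. Cabp4 was at 3.26, 53.0, 45.7 and 4.97 CPM in WT RPE replicates 1 to 4 and at 2.53, 14.99, 26.8 and 4.08 CPM in KO RPE. The summed rod markers were at 1963, 20477, 20540.0 and 2690.1 CPM and at 1365, 5386, 7508 and 1849 CPM in the same libraries. The same 4 libraries, replicates 2 and 3 of each genotype, were high for both, and Grm6 followed with 1.52, 54.7, 33.6 and 3.76 CPM in WT and 4.69, 19.2, 28.1 and 5.08 CPM in KO. Trpm1, which pigment cells also express, was at 388, 657, 308 and 816 CPM in WT and at 482, 409, 228 and 375 CPM in KO, with another order. Nyx was at 3.37, 6.71, 7.45 and 2.82 CPM in WT RPE, high in replicates 2 and 3, and at 3.03, 3.29, 5.78 and 3.24 CPM in KO RPE, high in replicate 3 alone. The part of retinal RNA in these RPE values was not tested, and no comparison of genotypes was drawn from them.

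Promoter sequences, from RefSeq on GRCm38.p6 around the annotated start, were at hand for 7 of the 10 genes, with 2 for Trpm1, and not for Rims2, Cacna2d4 and Cabp4. They were searched on both strands for TAATCC, whose reverse complement is GGATTA, the core bound by the photoreceptor and bipolar factors CRX and OTX2. Of all 32851 promoters of this length, 7.06% hold it. Among the 8 promoters of these genes 1 did, that of the first Trpm1 start (chr7:64153585-64153884, plus strand), and it is shown beside that of Grm6 (chr11:50850435-50850734, plus strand), because these are the postsynaptic genes that rose with the smallest p. Capitals mark the match.
Trpm1: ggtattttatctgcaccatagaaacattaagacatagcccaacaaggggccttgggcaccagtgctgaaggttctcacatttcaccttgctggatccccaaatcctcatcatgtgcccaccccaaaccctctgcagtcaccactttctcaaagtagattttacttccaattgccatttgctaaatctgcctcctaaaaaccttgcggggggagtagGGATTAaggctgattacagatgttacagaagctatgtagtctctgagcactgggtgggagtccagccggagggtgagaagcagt
Grm6: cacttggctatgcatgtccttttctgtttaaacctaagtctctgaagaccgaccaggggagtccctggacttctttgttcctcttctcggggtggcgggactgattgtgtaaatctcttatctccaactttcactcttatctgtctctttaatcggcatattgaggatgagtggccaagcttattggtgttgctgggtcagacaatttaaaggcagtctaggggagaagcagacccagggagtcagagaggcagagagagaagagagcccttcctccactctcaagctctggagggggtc
A match describes letters only, and no match says only that these letters are not in the window.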

How the data were processed

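Bulk retina and RPE libraries at P30 and single-cell libraries at P19, P25 and P30 were assigned to groups from their labels. The 10 genes and all lists were chosen with earlier results of these data known. For the bulk libraries the authors deposited counts of reads per gene, not normalized, and for single cells the deposited values are on a natural log scale. Per the submitters' processing notes, Cell Ranger 2.1, Seurat 3.2.2 and edgeR 3.20.9 were used on mm10; the aligner and counter of the bulk reads, and whether they used strand, were not found in the sources used, so reads of genes that overlap in exons cannot be told apart. Undoing the log 2 times gave whole UMI counts for 99.99998% of values (within 0.01), and these were summed. Gene symbols, coordinates and exon lengths came from GENCODE M21, in which 53620 of 53801 identifiers had a symbol, and the others held at most 0.0614% of the counts of a library.

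Bulk counts were filtered with edgeR's default filter, scaled with TMM and tested with edgeR 4.0.16 (quasi-likelihood); limma 3.58.1 and DESeq2 1.42.0 ran in R 4.3.3. P-values measure the spread between libraries. The replicate numbers come from the sample titles: deviations from the genotype means over genes had r = 0.218, 0.172, 0.157 and 0.173 for same-numbered WT and KO retina libraries, all over the threshold of 0.1. Libraries with different numbers had r between -0.2155 and 0.173, and WT replicate 3 had a higher r with KO replicate 4 than with KO replicate 3 (0.173 and 0.157). WT replicate 2 with KO replicate 1 (0.165) and WT replicate 4 with KO replicate 3 (0.148) were over that threshold too. The planned main fit had no block, and a fit with the replicate number as a block was an alternative.

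Cells (2558 to 5439 in WT and 3467 to 5633 in KO libraries, median 1349 to 4357 UMIs) were used as deposited, since the authors' cell filters and any removal of doublets were not found in the sources used; no doublet caller was run, and an alternative dropped the deepest 5% of the cells of a class. Libraries shared 49 of 26715 barcodes. Cells were clustered with leidenalg 0.10.2 (resolution 1.0, 30 components, 2000 genes, 15 neighbors) in Python 3.11.15 with numpy 2.4.6 and scikit-learn 1.9.0, without 68 genes (the 10 genes, the synapse lists, Adipor1 and genes of the sex chromosomes such as Xist). Clusters were named from marker lists, by a score threshold set after seeing the data, and 9 clusters with 1429 cells stayed unnamed. The plan allowed edgeR on single-cell sums where counts could be recovered; limma-trend on log2 CPM (prior count 2, at least 20 UMIs) was the planned test. Intervals at 95% are exact (Poisson for levels, binomial for ratios). The plain edgeR, DESeq2 and limma fits were checked on simulated data, for recovery of known fold changes. Alternatives such as the replicate block, the single fit of retina and RPE and fits without a library or an age were not simulated.

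The marker lists not described with the results gave, as called higher and called lower of those tested: horizontal cells 1 and 3 of 6, amacrine cells 0 and 0 of 9, retinal ganglion cells 0 and 0 of 8, Müller glia 8 and 1 of 10, astrocytes 2 and 0 of 4, microglia and macrophages 9 and 0 of 9, endothelial cells 2 and 0 of 6, pericytes 1 and 0 of 6 and RPE 1 and 0 of 9. Of all genes tested, 16.2% were called higher and 14.7% lower.

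Genes were named by rule: the 10 genes, Adipor1, the 5 genes with the smallest p of each synapse list, the 3 with the smallest p and the most abundant of each marker list described, and the 3 genes most like each of the 10 across classes, with at least 200 UMIs; a few genes that the rule picks are not shown. Others were named after their values were seen.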

Additional observations from a re-analysis of the deposited data

Results flagged for a closer look

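In 44 groups of 4 bulk libraries, from the 10 synapse genes and Adipor1 in each tissue and genotype, 3 held a library far from the other ones, and chance does this in about 1 of 20 groups. Cacna1f was at 379 CPM in KO retina replicate 3, below the next library at 423 CPM, and without that library its log2 fold change was -0.42 (edgeR adjusted p = 1.02e-04). Cacna2d4 was at 613 CPM in KO retina replicate 1, above the next at 594 CPM, and without it the log2 fold change was -0.24 (edgeR adjusted p = 0.00564). Nyx was at 5.78 CPM in KO RPE replicate 3, where the next library was at 3.29 CPM and where rod markers were the highest among KO RPE libraries.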

How the results depend on the processing

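Of the bulk log2 fold changes of the 10 genes under other settings, 142 kept their direction and call, 8 gained a call, 9 lost one and 1 reversed; of their single-cell log2 ratios, 253 stayed, 5 lost a call and 18 reversed. The cause was not tested. With retina and RPE in a single fit, 2731 genes, 0 of the 10 genes, 0 at 1.5-fold and 3 synapse list genes were called. Without TMM, the log2 fold change of Bsn was 0.0019. Leaving out a bulk library gave 4941 to 6243 genes, 7 to 8 of the 10 genes and 25 to 30 synapse list genes. The replicate block changed the call of Nyx and of no other of the 10 genes.

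In rod-like cells, 1 of the 10 genes was called at resolution 1.5, and 0 to 2 without an age. The log2 ratio of Pclo there was 0.0085 without the deepest cells and -0.30 to 0.23 without an age. In rod bipolar-like cells Pclo was at 0.16 with edgeR, and Cabp4 at 0.0033 with the mixed cluster, an alternative chosen after seeing the data. Without an age, ratios there were -0.36 to 0.18 for Pclo, -0.14 to 0.066 for Cacna2d4 and -0.21 to 0.080 for Grm6. In ON cone bipolar-like cells edgeR gave 0.016 for Bsn and -0.027 for Rims2. Without an age, ratios there were -0.32 to 0.058 for Bsn, -0.079 to 0.13 for Rims2, -0.74 to 0.016 for Cacna1f, -0.45 to 0.082 for Cabp4, -0.074 to 0.19 for Trpm1 and -0.42 to 0.068 for Nyx. Over all genes, calls in rods numbered 751, and 464 at resolution 1.5 and 417 to 1626 without an age; in rod bipolar-like cells 1, and 135 with edgeR, 7 with the mixed cluster and 0 to 124 without an age; in ON cone bipolar-like cells 0, and 46 with edgeR and 2 to 41 without an age. None of the reversed ratios was called. Leaving out the deep rod cluster and TMM on the class sums, also chosen after seeing the data, changed no call of the 10 genes.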

Other observations

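Over the classes of single cells, the step between the sequencing batches differed by gene. In WT rod-like cells Pclo went from 151 CPM at P25 to 26.0 CPM at P30 and Rims2 from 753 to 296 CPM, while Cabp4 went from 537 to 404 CPM. Pclo was also lower at P30 than at P25 in WT rod bipolar-like cells (168 to 36.9 CPM, with 6 UMIs at P30) and WT ON cone bipolar-like cells (189.6 to 59.3 CPM). Age and batch cannot be told apart in these steps.

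Trpm1 was the only one of the 10 genes with a mean above 100 CPM in RPE-like single cells. It was at 912 ± 811 CPM over 6 libraries, between 38.2 and 2187 CPM, on 4 to 28 cells per library. In bulk, Trpm1 was at 542 ± 236 CPM (n = 4) in WT RPE and at 381 ± 8.90 CPM in WT retina. The tissues were scaled apart, so these levels are not on a common scale. The part of retinal RNA in the RPE libraries was not tested.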
